A study of Homo sapiens with 3 samples.

Results

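The transcription factors that give hepatocytes their identity were followed in Huh7 cells exposed to chlorogenic acid (CA), a plant polyphenol. The set comprised 8 genes chosen by name for their known role in the liver, HNF4A, FOXA1, FOXA2, FOXA3, CEBPA, ONECUT1, PROX1 and NR5A2, out of 19736 named genes on the array. Huh7 is an established line grown from a human hepatoma, and the study examined CA as an inducer of tumor cell differentiation. Total RNA was taken from untreated cells (0 μM CA) and from cells kept for 24 h with CA at 50 or 100 μM. The untreated cells received the solvent DMSO, as described in the methods. No gene was altered in any group. Each group was 1 RNA sample on 1 one-colour Agilent array, so the values below compare single arrays, have no replicate check and allow no test across samples.

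In the developing liver, the forkhead proteins FOXA1, FOXA2 and FOXA3 open chromatin and let other factors bind. The nuclear receptor HNF4A, the leucine zipper protein CEBPA and the homeodomain proteins ONECUT1 and PROX1 then act in a network that switches on genes for plasma proteins, bile acid synthesis and glucose metabolism. NR5A2, an orphan nuclear receptor also called LRH-1, acts in the same network on bile acid and cholesterol genes. The RNA of these factors is commonly read as a sign of how far a hepatoma cell has kept or regained the hepatocyte state, and the comparison asks whether it moved under CA.

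Between 70.4% and 71.1% of the gene spots were well above background on the 3 arrays, and the signal at the 75th percentile, to which each array was scaled, was 1059 units in untreated cells, 1207 at 50 μM CA and 1249 at 100 μM CA. On the 100 μM CA array, 5.71% of the gene spots lay at the centre of areas where probes that were dim on both other arrays were bright. The shares were 0.139% and 0.0881% on the untreated and 50 μM CA arrays. Genes with such a spot are marked as such where they are named. Spots nearer the edge of such an area are not counted in these shares. The liver origin of the line was visible in its secreted proteins. Of 8 hepatocyte markers, 7, 7 and 8 were read well above background in untreated, 50 μM CA and 100 μM CA cells (the spot of TF was left out on the first pair of arrays for an outlier flag), with a summed signal of 306440 to 321540 units (SERPINA1 and APOA2 had disturbed spots at 100 μM CA). The defining markers of other cells that such a culture should lack were far fainter in sum. Endothelial markers summed to 799 to 1092 units (3 of 4 well above background, KDR not), leukocyte markers to 627 to 701 (4 of 4, PTPRC with a disturbed spot at 100 μM CA) and fibroblast and stellate cell markers to 475 to 632 (2 to 3 of 4, DCN not on any array). Of the latter, COL1A1 was above background only at 100 μM CA, at 51.7 units in a disturbed spot. Keratinocyte markers summed to 329, 126 and 792 units in the order of the arrays, with KRT5 and TP63 not above background anywhere. Most of these sums came from a single gene, KRT14, at 306, 99.1 and 765 units. The part of these transcripts in the values below was not tested, and fewer cells of a type and less RNA per cell cannot be told apart in such samples.

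HNF4A, the nuclear receptor on which much hepatocyte gene expression depends, was the member that the array read least well. Its only probe was annotated to a single transcript accession, 1 of 10 curated coding transcripts of the gene, so transcripts without the probed sequence would not have been seen. The processed signal was 9.37 ± 3.0 (scanner error) units in untreated cells, 21.8 ± 3.65 at 50 μM CA and 15.5 ± 3.66 at 100 μM CA, and only the 50 μM CA spot was well above background. The spots themselves had median intensities of 68.5, 84 and 82 against local backgrounds of 29, 30 and 28 units. With the faintest measured probe of the untreated array as a floor, the HNF4A signal at 50 μM CA gave a bound of 1.57-fold over untreated cells. This bound leaves out the scanner error of the 50 μM CA spot. The probe passed the background filter on that array alone, so the bound is no test of a rise. The 100 μM CA signal lay above the floor of its own array, 14.8 units, so no bound applies between the doses. As read, it was 1.46-fold lower than that at 50 μM CA, with a log2 ratio of −0.54 ± 0.42. No fold is given between 100 μM CA and untreated cells, where neither spot was well above background. With another background correction (normexp), the same spots gave a log2 ratio of only 0.05 for 50 μM CA over untreated cells, below the bound. For 100 μM CA over 50 μM CA it was −0.07. The size of both HNF4A differences thus depended on the background correction.

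The reference table lists 2 start sites of HNF4A, 45540 bases apart, and the array could not say which was used. The bases upstream of the first are shown because they carry a match to the binding sequence of another member. Both strands of the 250 bases upstream of every start site were searched for TGTTTAC (FOXA), TTGCNNAA (C/EBP), CAAAGTCCA (HNF4), CAAGGTCA (NR5A2), ATTGATT (ONECUT) and CACGTG (E-box, the same on both strands). Over 35116 human promoters in RefSeq (GRCh38.p14), these were found in 2.98%, 9.05%, 0.325%, 1.14%, 1.98% and 6.34% of windows, respectively. No match overlapped another in the members' windows, and matches are printed in capitals. The window of the first start site lies on the plus strand at chr20:44355449-44355698 and holds 1 ONECUT match, 34 bases before the start. That of the second, chr20:44400989-44401238, holds none of the searched sequences.
HNF4A first start site: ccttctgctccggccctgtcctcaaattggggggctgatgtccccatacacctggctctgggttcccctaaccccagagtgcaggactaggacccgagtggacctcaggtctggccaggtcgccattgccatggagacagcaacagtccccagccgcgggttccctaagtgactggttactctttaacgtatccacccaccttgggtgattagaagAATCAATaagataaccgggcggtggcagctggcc

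A match is a description of letters and says nothing of binding in these cells. The table was matched by symbol for 6 of the 8 members, not for FOXA2 and PROX1.

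**Figure D1:**
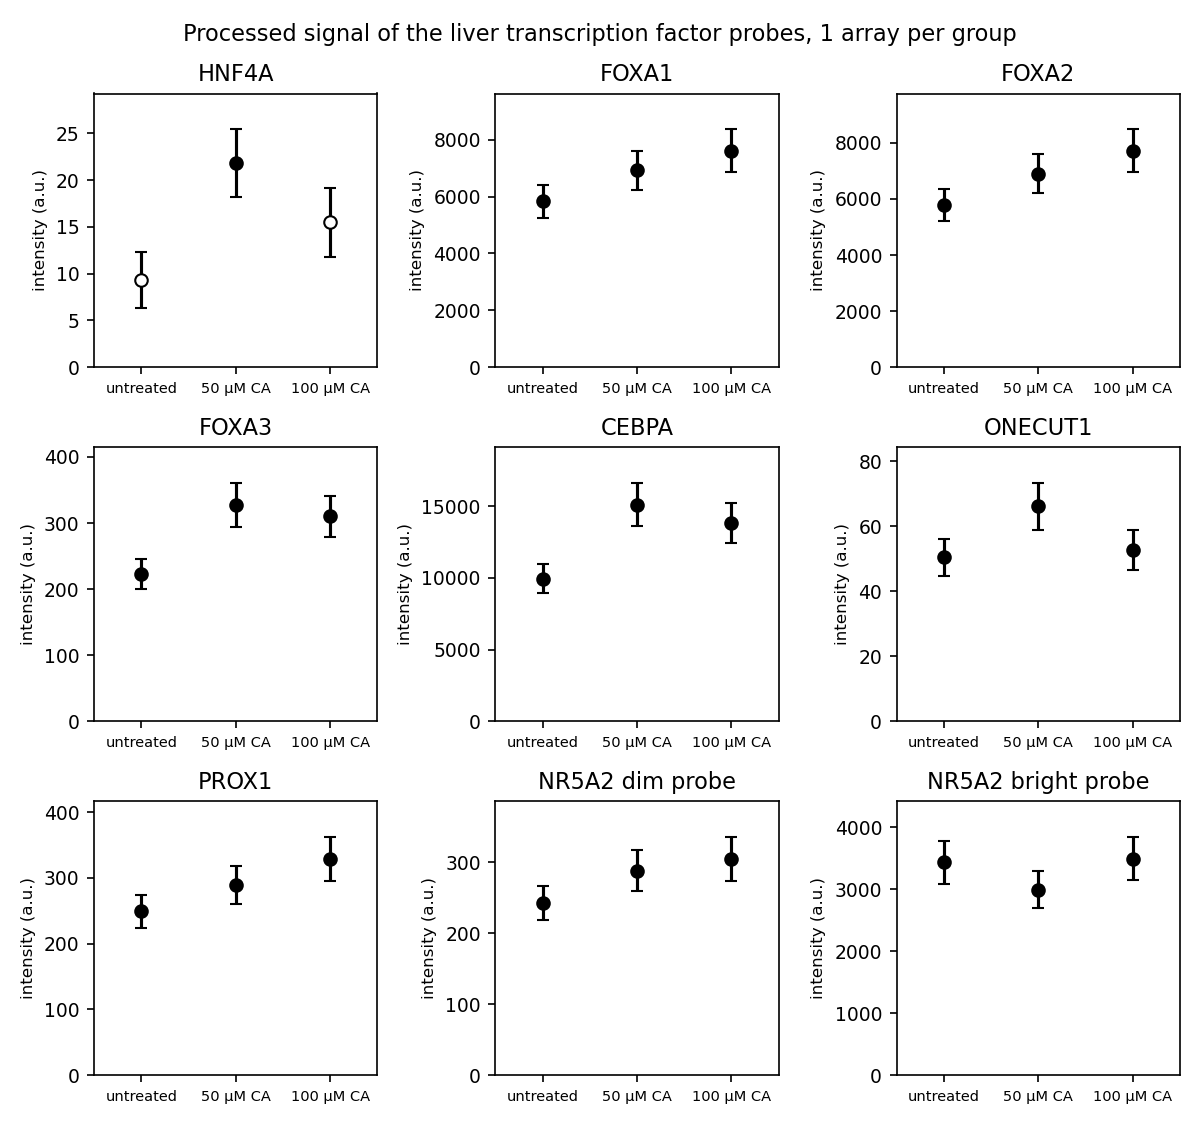
Processed signal of each member probe (vertical axes, arbitrary intensity units from 0) on the untreated, 50 μM CA and 100 μM CA arrays, with bars of 1 scanner error. Open circles mark spots not well above background, which occurred for HNF4A on the untreated and 100 μM CA arrays. These signals are not yet scaled between arrays.

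CEBPA, which restrains hepatocyte division and drives metabolic genes, had the largest mean size of log2 ratio over the doses, 0.33, among the members measured on all arrays. It read 9944 ± 994, 15100 ± 1510 and 13842 ± 1384 units in untreated, 50 μM CA and 100 μM CA cells (scanner error). Both CA arrays were above the untreated one, and 50 μM CA read the higher of them. The scaled log2 ratio of 100 μM CA over 50 μM CA was −0.17 ± 0.20, within the scanner error. After scaling, the log2 ratio to untreated cells was 0.41 ± 0.20 at 50 μM CA (1.33-fold) and 0.24 ± 0.20 at 100 μM CA (1.18-fold). Among all 22471 probes measured on both arrays, 16.6% lay at least as far from 0 at 50 μM CA, and 26.2% of 22267 did at 100 μM CA, so that the ratio was not unusual on the arrays as a whole. Bright probes, however, varied less and lay lower. The 500 probes nearest to CEBPA in signal had a median log2 ratio of −0.12 (SD 0.18) at 50 μM CA and −0.06 (SD 0.12) at 100 μM CA, and CEBPA was above 98.2% and 97.6% of them. The spot of CEBPA on the 100 μM CA array was covered by the edge of a disturbed window, although only 3 of 36 dim spots around it were bright.

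FOXA3, a forkhead factor of the mature liver, showed the same order of the arrays. Its processed signal was 223 ± 22.5 units in untreated cells, 327 ± 32.9 at 50 μM CA and 310 ± 31.2 at 100 μM CA. The scaled log2 ratios were 0.37 ± 0.21 and 0.24 ± 0.21, with 20.8% and 25.9% of all probes at least as far from 0. For 100 μM CA over 50 μM CA, the log2 ratio was −0.13 ± 0.21, within the scanner error. Against the 500 probes of like signal, whose median was 0.07 at 50 μM CA and 0.02 at 100 μM CA, FOXA3 stood above 81.6% and 85.2%. In probes of that signal printed in 10 copies, the SD of a ratio between copies was 0.08 at either dose. CEBPA and FOXA3 were thus the only members above untreated cells by more than the scanner error at both doses. Of the control genes, the GAPDH probe had log2 ratios of 0.21 and 0.03 at the 2 doses (with a disturbed spot at 100 μM CA), the ACTB probes 0.28 and 0.01, and −0.27 and −0.39, and TBP −0.05 and −0.02.

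The promoters of CEBPA and FOXA3 are shown because both genes were above untreated cells by more than the scanner error at both doses. Both lie on chromosome 19, at chr19:33302535-33302784 on the minus strand for CEBPA and chr19:45864076-45864325 on the plus strand for FOXA3. Their content of G and C was 81.2% and 75.2%, against a median of 58% over all promoters, but ONECUT1 (76.8%) and FOXA1 (67.2%) also lay above that median. Neither window holds a match to any of the searched sequences.
CEBPA: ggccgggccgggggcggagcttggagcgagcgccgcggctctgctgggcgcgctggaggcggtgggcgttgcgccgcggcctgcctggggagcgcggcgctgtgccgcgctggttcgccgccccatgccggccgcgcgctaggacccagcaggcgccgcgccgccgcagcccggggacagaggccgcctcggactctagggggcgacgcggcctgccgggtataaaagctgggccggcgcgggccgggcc
FOXA3: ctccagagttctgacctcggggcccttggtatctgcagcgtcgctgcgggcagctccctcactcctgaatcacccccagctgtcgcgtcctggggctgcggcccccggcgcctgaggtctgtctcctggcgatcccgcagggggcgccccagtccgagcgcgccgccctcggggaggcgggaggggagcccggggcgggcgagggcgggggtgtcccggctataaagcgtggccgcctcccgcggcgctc

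FOXA1 and FOXA2, the forkhead factors that act earliest in liver specification, gave nearly equal ratios. FOXA1 read 5837 ± 584, 6917 ± 692 and 7608 ± 761 units in untreated, 50 μM CA and 100 μM CA cells, and FOXA2 read 5788 ± 579, 6896 ± 690 and 7715 ± 772. The rank of the arrays was the same for both genes, with 100 μM CA the highest. Much of this rise was shared by the whole arrays, since scaling left log2 ratios of 0.06 at 50 μM CA and 0.14 at 100 μM CA for FOXA1, and 0.06 and 0.18 for FOXA2, each with a scanner error of 0.20. Both genes were within that error of untreated cells at both doses. Of all probes, 83.9% and 81.7% were at least as far from 0 at 50 μM CA as FOXA1 and FOXA2, and 46.8% and 38.5% were at 100 μM CA. Among the 500 probes of like signal, with a median of −0.10 (SD 0.21) at 50 μM CA for either gene, FOXA1 was above 79.2% and FOXA2 above 80.6%. At 100 μM CA, with a median of −0.05 (SD 0.13) for either gene, FOXA1 was above 95.2% and FOXA2 above 96.8%.

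FOXA1 was the only member printed in 10 copies, which shows how far the spots of 1 array agree. Of these, 9 were used on each array, and the one in a disturbed area at 100 μM CA was not among them. The scaled log2 values ran from 2.38 to 2.53 (median 2.46, SD 0.05) on the untreated array, from 2.44 to 2.56 (median 2.52, SD 0.04) at 50 μM CA and from 2.54 to 2.67 (median 2.62, SD 0.04) at 100 μM CA. The untreated and 50 μM CA spots overlapped, as did those of the CA arrays, whereas the lowest 100 μM CA spot lay just above the highest untreated one. The SD of the ratio between copies was 0.03 at 50 μM CA and 0.06 at 100 μM CA. Copies on 1 array share the RNA, the labelling and the hybridisation, so this spread is technical and leaves out the difference between cultures.

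**Figure D2:**
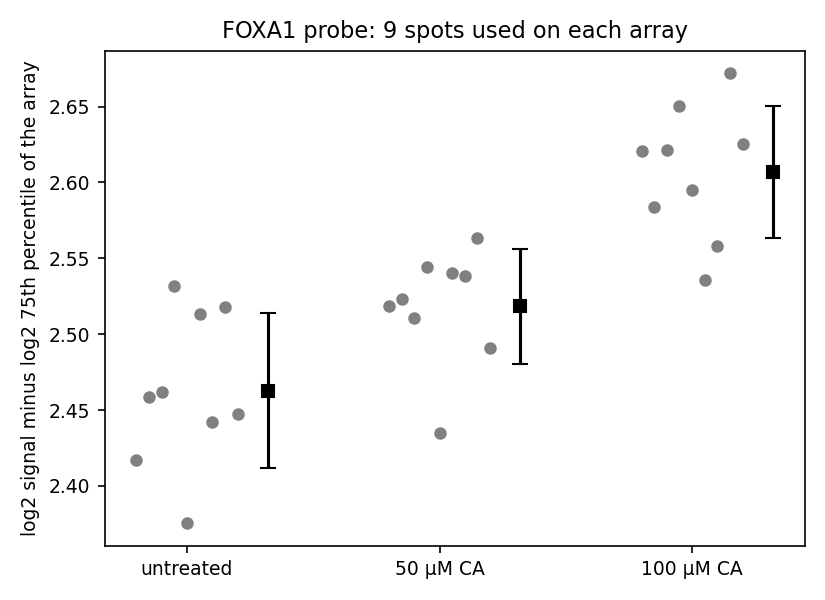
Scaled log2 signal (vertical axis, log2 units relative to the 75th percentile of the array, not starting at 0) of the 9 FOXA1 spots used on each array (grey circles), with their mean and SD (black squares and bars). The 100 μM CA spots, 2.54 to 2.67, sit above all untreated spots, 2.38 to 2.53, while the 50 μM CA spots overlap both.

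ONECUT1, also called HNF6, acts upstream of HNF4A and in bile duct formation. It was faint, at 50.4 ± 5.75 units in untreated cells, 66.1 ± 7.17 at 50 μM CA and 52.6 ± 6.13 at 100 μM CA. The log2 ratio to untreated cells was 0.20 ± 0.23 at 50 μM CA and −0.18 ± 0.24 at 100 μM CA, so that the doses lay on opposite sides of 0 and neither exceeded the scanner error. Of the 500 probes of like signal, 65.6% were below ONECUT1 at 50 μM CA and 28.8% at 100 μM CA. Between the doses, ONECUT1 showed the widest gap of the measured members, with a log2 ratio of −0.38 ± 0.23 for 100 μM CA over 50 μM CA, which 11.5% of 22453 probes matched or passed. Faint probes in 10 copies had an SD of 0.17 between copies for that ratio, and background correction by normexp brought the gap to −0.14.

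PROX1, a homeodomain factor needed for hepatoblasts to spread and mature, read 249 ± 25.1, 289 ± 29.0 and 329 ± 33.0 units in untreated, 50 μM CA and 100 μM CA cells. The scaled log2 ratios were 0.02 ± 0.21 and 0.16 ± 0.21, both within the scanner error. At 50 μM CA the sign itself depended on the scaling, with values from −0.04 to 0.04 over 8 settings. Of the 500 probes of like signal, 45.4% were below PROX1 at 50 μM CA and 75.4% at 100 μM CA.

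NR5A2 was represented by 2 probes, which differed, the brighter lying below untreated cells and the dimmer within the scanner error of them. The brighter one read 3438 ± 344, 2998 ± 300 and 3493 ± 349 units in untreated, 50 μM CA and 100 μM CA cells, and its scaled log2 ratios were −0.39 ± 0.20 (1.31-fold lower) and −0.22 ± 0.20 (1.16-fold lower). It was the only member probe below untreated cells at both doses, and 5% and 8.2% of the 500 probes of like signal were lower still. The dimmer probe read 243 ± 24.5, 288 ± 29.0 and 305 ± 30.7 units, with log2 ratios of 0.06 ± 0.21 and 0.09 ± 0.21. Of the 500 probes nearest to it in signal, 50.8% and 63% were lower. Of all probes, 18.9% and 30.3% lay at least as far from 0 as the brighter NR5A2 probe at the 2 doses, and 82.9% and 63.6% as far as the dimmer one. No direction is therefore given for the gene. NR5A2 has 2 start sites in the table, and the window of the second lies on the plus strand at chr1:200042341-200042590. It is shown because it is the only searched window of the members that holds a FOXA match, 105 bases before the start. FOXA2 and PROX1 had no window to search.
NR5A2 second start site: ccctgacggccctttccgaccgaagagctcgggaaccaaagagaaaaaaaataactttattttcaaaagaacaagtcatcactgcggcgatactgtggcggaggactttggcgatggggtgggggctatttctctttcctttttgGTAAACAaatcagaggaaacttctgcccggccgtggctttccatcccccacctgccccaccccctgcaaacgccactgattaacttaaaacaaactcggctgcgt

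Of the other windows, that of ONECUT1 held an E-box match, and those of FOXA1 and the first NR5A2 start site held none of the searched sequences.

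Across the members, 8 probes of 7 genes were measured on all 3 arrays, and none of them was 1.5-fold apart in any comparison. A 1.5-fold difference was reached by few probes on the arrays in all. At 50 μM CA over untreated, 5.05% of the measured probes were at least 1.5-fold higher and 2.17% lower. At 100 μM CA over untreated, these shares were 2.51% and 1.8%. For 100 μM CA over 50 μM CA, they were 1.62% and 2.0%. The count of 0 of 8 member probes was therefore near what those shares give. At 2-fold, the shares higher and lower were 0.614% and 0.458% at 50 μM CA, 0.638% and 0.256% at 100 μM CA, and 0.681% and 0.174% between the doses, again with 0 of 8 member probes. In direction, 7 of 8 member probes were above 0 at 50 μM CA and 6 of 8 at 100 μM CA, against 48.2% and 45.2% of all probes. At 50 μM CA, PROX1 (−0.04) and the dimmer NR5A2 probe (−0.01) were below 0 under quantile normalization and with the deposited log2 values. Both counts include the 2 NR5A2 probes, which differed, and several probes within the scanner error of 0. The median log2 ratio of the members was 0.06 at 50 μM CA (all probes −0.01, SD 0.33), 0.15 at 100 μM CA (all probes −0.02, SD 0.28) and 0.06 between the doses (all probes −0.01, SD 0.28). The median at 50 μM CA depended on the scaling, with 0.012 under centring on the measured probes, 0.125 under quantile normalization and 0.13 under cyclic loess. The comparisons with untreated cells share the untreated array, so the values at the 2 doses are not independent of each other.

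**Figure D3:**
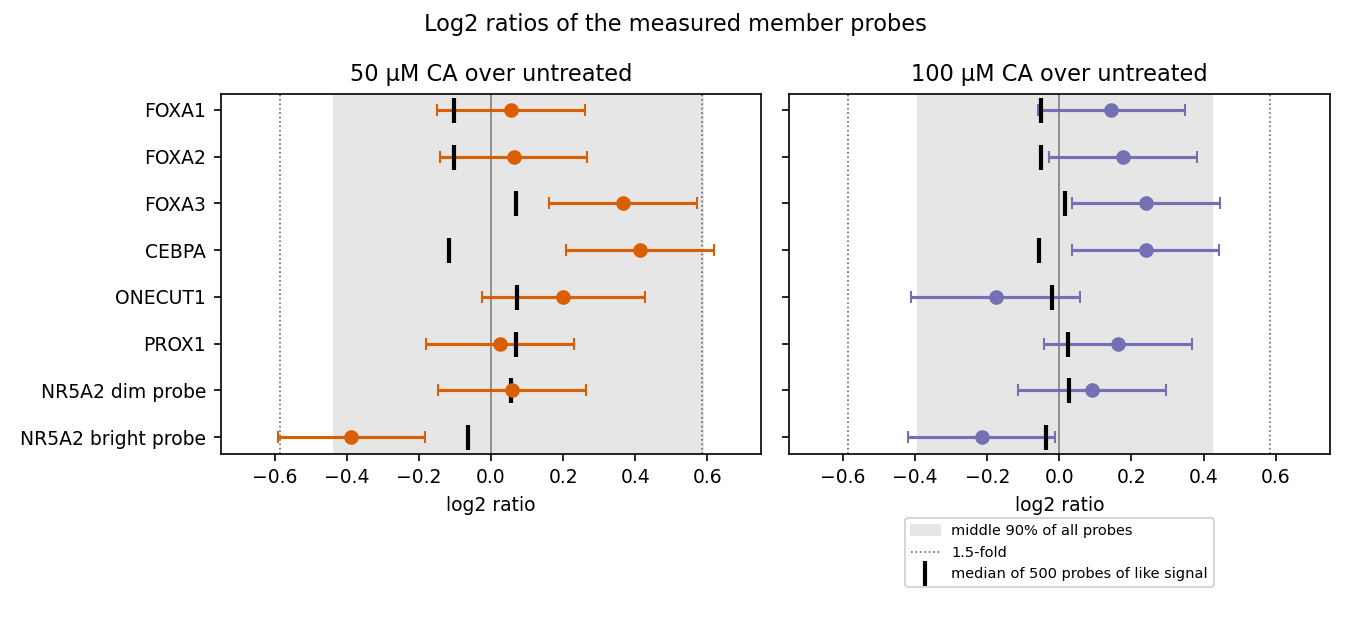
Log2 ratio to untreated cells (horizontal axes) of the 8 member probes measured on all arrays, at 50 μM CA (left) and 100 μM CA (right), with bars of 1 scanner error. The grey band holds the middle 90% of all probes, dotted lines mark 1.5-fold, and black ticks give the median of 500 probes of like signal. CEBPA (0.41 and 0.24) and FOXA3 (0.37 and 0.24) are farthest to the right on average, the brighter NR5A2 probe (−0.39 and −0.22) farthest to the left, and every point lies within the band and the dotted lines.

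**Figure D4:**
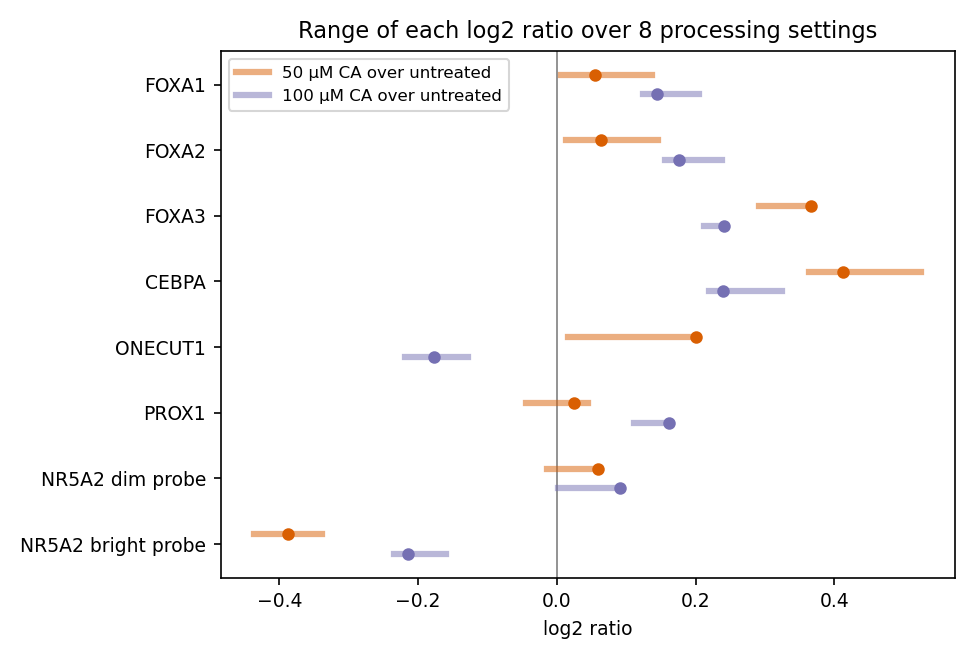
Lowest to highest log2 ratio to untreated cells (horizontal axis, bars) of each measured member probe over 8 processing settings, with the values as reported (circles). Only PROX1 and the dimmer NR5A2 probe, both at 50 μM CA, have bars that cross 0. CEBPA stays between 0.36 and 0.53 at 50 μM CA and between 0.22 and 0.32 at 100 μM CA.

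The genes with the pair of ratios most similar to that of CEBPA were LAMTOR1 (0.41 and 0.24), CD81 (0.42 and 0.24) and ABCC1 (0.42 and 0.23). Similarity was the distance between the pairs of ratios, over 2 values only. Within a distance of 0.1 lay 378 of 14542 genes (2.60%), so the pattern was a common one.

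The other regulators of liver genes moved little as a group. Of 22 such genes, 20 were measured, and their median log2 ratio was −0.06 at 50 μM CA and −0.05 at 100 μM CA, near −0.04 and −0.03 over all 14543 measured genes. The sign of the median at 50 μM CA depended on scaling, from −0.10 to 0.04. Only ZBTB20, a repressor of AFP after birth, passed 1.5-fold, with 740, 1371 and 1137 units and log2 ratios of 0.70 and 0.38. The 3 probes of GATA4, a zinc finger factor of early endoderm, all lay above 0. Their log2 ratios were 0.45, 0.52 and 1.02 at 50 μM CA and 0.21, 0.15 and 0.64 at 100 μM CA, and only the faintest of them, at 38.5, 89.1 and 70.8 units, passed 1.5-fold. GATA4, like CEBPA, FOXA3 and ZBTB20, was higher at 50 μM CA than at 100 μM CA in every measured probe. For CEBPA and FOXA3 that gap was within the scanner error.

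Nuclear receptors and their partners, which share targets with HNF4A and NR5A2, had medians of −0.05 and −0.10 over 25 of 27 genes. The coactivator PPARGC1A, which works with HNF4A on glucose production, read 301, 222 and 251 units, with log2 ratios of −0.63 and −0.50, and was past 1.5-fold at 50 μM CA. Its relative PPARGC1B had a probe at 37.1, 84.8 and 64.0 units with log2 ratios of 1.0 and 0.55, while its brighter probe had 0.00 and −0.10. The highest were NCOA1 at 50 μM CA (0.38), a coactivator, and NR1D1 at 100 μM CA (0.55), a repressor of the circadian clock. NR1D1 was faint, at 32.1 units in untreated cells and 55.3 at 100 μM CA. Its ratio ran from 0.10 to 0.58 over the processing settings.

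The hepatocyte products, genes that the members are known to regulate, lay below 0 for the most part. Of 36, 29 were measured, and 4 of them were above 0 at each dose (6374 and 6157 of 14543 genes in all), with a median of −0.19 at 50 μM CA and −0.12 at 100 μM CA. Most are bright, and the scaling changed the size of these medians, from −0.24 to −0.13 at 50 μM CA and from −0.14 to −0.02 at 100 μM CA. At 50 μM CA the sign of ALB (−0.19 to 0.18) and RBP4 (−0.19 to 0.10) also depended on the processing. TTR (−0.52 to −0.26) and APOB (−0.31 to −0.12) stayed below 0. Bright probes lay low in general, with medians of −0.12 and −0.06 for the 500 nearest to CEBPA in signal. The list was not compared with probes of like signal. At 50 μM CA, HPX (hemopexin, a heme carrier) was 1.5-fold higher, with 526, 923 and 769 units and log2 ratios of 0.62 and 0.31. IGFBP1, an insulin-repressed carrier of growth factors, was 1.5-fold lower at both doses, with 316, 217 and 232 units and log2 ratios of −0.73 and −0.69. TAT, a tyrosine-degrading enzyme and textbook target of CEBPA and the glucocorticoid receptor, had log2 ratios of −0.34 and 1.52, the latter from a spot in a disturbed area of the 100 μM CA array. On all 3 arrays, CYP7A1 and CYP8B1 of bile acid synthesis, CYP3A4 and the clotting factor F9 were not well above background. The 2 probes of APOA1 differed, with 0.16 and 0.00 for the brighter and 0.67 and 0.39 for the other.

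Fetal liver and progenitor markers had medians of −0.05 at 50 μM CA and −0.13 at 100 μM CA over 18 of 19 genes, and quantile normalization turned the latter to 0.03. KRT7, a keratin of bile duct cells, was 1.5-fold lower at both doses, with 6317, 3839 and 4897 units and log2 ratios of −0.91 and −0.61. SPP1 (osteopontin) was lower at 50 μM CA, at −0.60, but not at 100 μM CA, at 0.12. The highest were SOX9 at 50 μM CA (0.36), a factor of duct progenitors, and IGF2BP1 at 100 μM CA (0.25), a fetal RNA-binding protein.

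Among regulators of other lineages of the gut tube, 8 of 15 were measured, with medians of 0.00 and 0.02. On all 3 arrays, BARX1, NKX2-1, NKX6-1, SOX2 and TP63 were not well above background. PAX8 of the thyroid was the lowest, with −0.32 and −0.52, and FOXJ1 of ciliated cells the highest at 50 μM CA, with 0.27. FOXJ1 was faint, at 21.1 units in untreated cells and 28.9 at 50 μM CA. Its ratio ran from −0.02 to 0.27 over the processing settings. In the wider forkhead family, 11 of 13 genes were measured, with medians of −0.15 and −0.07. FOXD1, known from kidney and retina, was more than 2-fold lower at both doses, with 112, 46.8 and 60.9 units and log2 ratios of −1.44 and −1.11. The highest of that family were FOXM1 at 50 μM CA (0.22), which drives cell division, and FOXQ1 at 100 μM CA (0.14). Over the other scalings and background corrections, the ratio nearest to 0 was 0.57 for HPX, −0.54 for PPARGC1A and −0.52 for SPP1 at 50 μM CA, and −0.55 for KRT7 at 100 μM CA, all short of 1.5-fold. For FOXD1 it was −0.73 and −0.62 at the 2 doses, short of 2-fold, and for TAT at 100 μM CA it was 0.34.

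**Figure D5:**
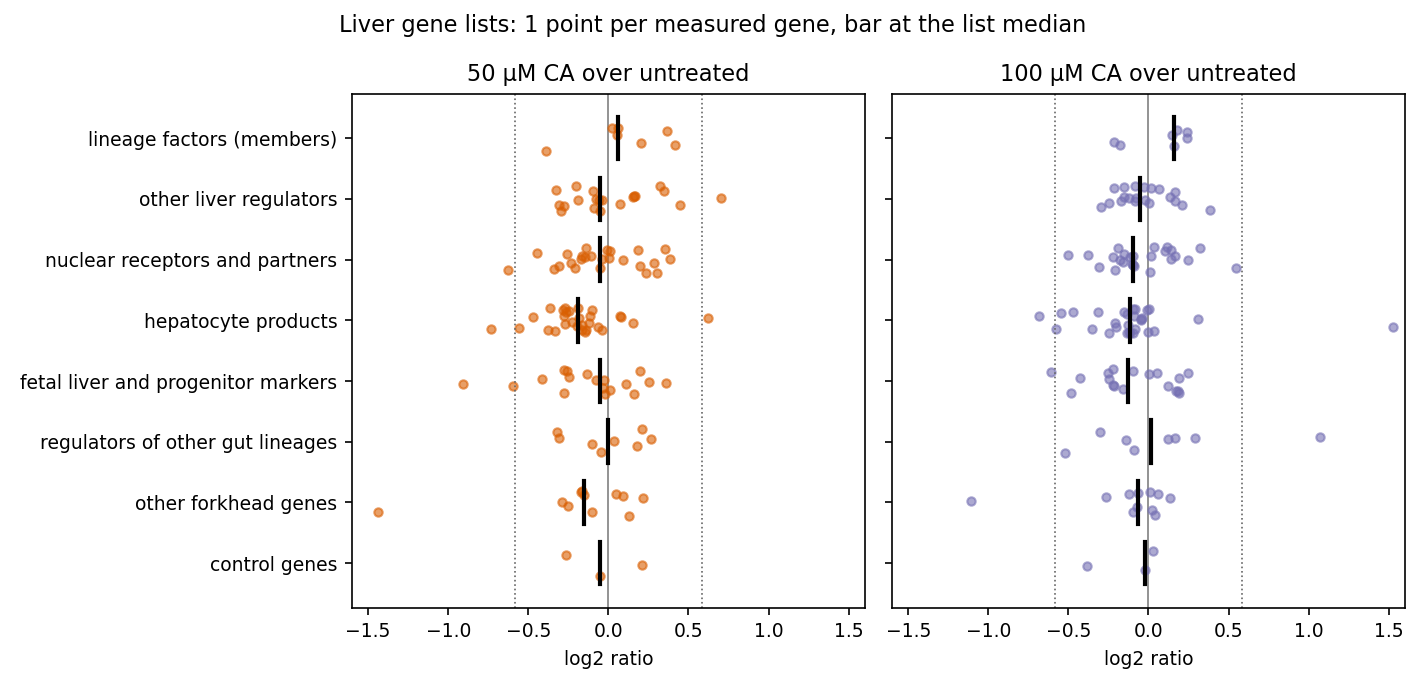
Log2 ratio to untreated cells (horizontal axes) of every measured gene (points) in the liver gene lists and in the control genes GAPDH, ACTB and TBP, at 50 μM CA (left) and 100 μM CA (right), with black bars at list medians and dotted lines at 1.5-fold. Points are spread vertically for visibility. The members lie within the dotted lines, hepatocyte products have medians of −0.19 and −0.12, and points far out include FOXD1 (−1.44 and −1.11) and, at 100 μM CA, TAT (1.52) from a disturbed spot.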

How the data were processed

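Cy3-labelled RNA of Huh7 cells was hybridised by the authors to Agilent whole human genome arrays, 1 per group, and scanned with Feature Extraction 11.0.1.1 per the labels. The deposited files give each spot an intensity in arbitrary units, background-subtracted by the software but not scaled between arrays. The authors also deposited a table of log2 values by a method not given in the sources used here, taken as an alternative only.

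Log2 intensity was set relative to the 75th percentile of gene spots on each array. Spots with an outlier flag (429, 569 and 596) were left out, and probes printed 10 times were averaged. Ratios required a signal well above background on both arrays compared, apart from the values given for HNF4A. Scanner errors are those of the Feature Extraction error model and cover neither culture nor labelling. For the bound on HNF4A at 50 μM CA over untreated cells, the dim side was set to the higher of 2 values. These were its own signal and the lowest probe value well above background on that array. Names came from RefSeq accessions (GRCh38.p14), which named 25767 of 34127 probes (75.5%), and genes with several probes were represented by the brightest. A disturbed area was a block of 17 rows by 7 columns of spots with at least 5 spots, and 25% of dim ones, at least 4-fold brighter than on both other arrays. A spot was counted as disturbed when it was the centre of such a block. Other spots covered by a block were left out only in an added alternative. As alternatives, cyclic loess, quantile normalization, centring on measured probes, normexp with an offset of 50, the log2 table, no filter or a filter on 1 array, removal of disturbed or flagged spots, other rules for several probes, a 2-fold limit and a floor from single spots were run. Steps were tested on simulated data. The genes and lists were chosen with earlier results of these data known. Named from each list were genes 1.5-fold apart in every measured probe, otherwise the highest and lowest (some are not reported here). GATA4, APOA1, PPARGC1B and the comparison with 500 probes of like signal were added after their values were seen. Python 3.11.15, numpy 2.4.6, pandas 2.3.3, matplotlib 3.10.9, R 4.3.3 and limma 3.58.1 were used.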

Additional observations from a re-analysis of the deposited data

How the results depend on the processing

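The median log2 ratio at 50 μM CA, 0.06, was 0.012 under centring, 0.125 under quantile normalization, 0.126 with the log2 table and 0.13 under cyclic loess. At 100 μM CA it ran from 0.13 to 0.18 over the alternatives. The number of member probes at least 1.5-fold apart at 50 μM CA went from 0 to 1 without a filter on dim probes, and to 1 when 1 of the 2 arrays had to be well above background, in both cases by adding HNF4A. Of 240 alternative values for single member probes, 222 moved by less than the SD between copies of probes of like signal and 18 by more. The count of 222 includes values that could not move, since the filters on dim probes leave the ratio of a single probe as it is. Removal of disturbed areas also left these ratios unchanged. All 18 came from quantile normalization, cyclic loess, the log2 table or normexp. The sign turned for PROX1 in 4 of 8 settings and for the dimmer NR5A2 probe in 3 of 8, both at 50 μM CA. Among the 18 values that moved by more than that SD, without a change of sign, were those of CEBPA and ONECUT1. CEBPA at 50 μM CA was at 0.50 with quantile normalization and 0.53 with cyclic loess, and ONECUT1 between the doses at −0.14 with normexp. When every spot covered by a disturbed window was left out, an alternative added after seeing the data, CEBPA had no value at 100 μM CA. The share of higher probes among those 1.5-fold apart was 70.0% at 50 μM CA and 59.5%, 60.0%, 58.1% and 59.2% under quantile normalization, cyclic loess, centring and the log2 table. At 100 μM CA it was 58.3%, and 46.5%, 46.2%, 37.2% and 46.3% under quantile normalization, the log2 table, normexp and without disturbed areas, but 62.7% with loess and 54.3% with centring. Between the doses it was 44.8%, 61.3% with loess and 26.5% without disturbed areas. No paired analysis was possible because each group held 1 array. For the same reason no replicate could be left out, and slide and scan could not be fitted. Signal over background limited HNF4A and ONECUT1 the most.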
